A study of Rattus norvegicus with 12 samples.

Results

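The nidogen, laminin and collagen IV genes are 10 genes of the basement membrane, taken by symbol from a table of 30562 gene rows, with 1 row for each symbol. They are the nidogens Nid1 and Nid2, the collagen IV chains Col4a1 and Col4a2, the laminin chains Lama2, Lama4, Lamb1 and Lamc1, and the heparan sulfate proteoglycans Hspg2 (perlecan) and Agrn (agrin). They were chosen by their symbols as basement membrane genes, and the only measured value the rule uses is the total count where a symbol is repeated, which occurred for 0 members. They were proposed with the large difference of Nid1 between the groups already known, so its values are described below without a test. The members and the further gene lists below were chosen with earlier results of these data known. Counts of genes called among them are therefore descriptions. RNA was sequenced from oligodendrocyte precursor cells (OPCs), the glial progenitors that give rise to myelinating oligodendrocytes, in 12 libraries. Of these, 6 came from mild-hypo-OPCs, kept at 5% oxygen, and 6 from standard OPCs, kept in room air. All cells were primary cultures from the cortices of newborn wild-type Sprague-Dawley rats. They were shaken off mixed glia that had been grown with serum on poly-D-lysine, separated from microglia, replated on poly-L-ornithine, and fed FGF-2 and PDGF-AA in both groups, with no basement membrane protein named among the coatings. The sample labels give 6 hours of exposure, whereas the published methods give a longer one, and the labels do not say which libraries came from separate cultures. A published figure legend gives fewer biological replicates per group than there are libraries, so n below counts libraries, and the SDs and p-values may in part measure technical spread.

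A basement membrane is a thin sheet of extracellular matrix that cells secrete and stand on. Laminins, trimers of an alpha, a beta and a gamma chain, polymerise at the cell surface and bind integrins and dystroglycan. Collagen IV forms a second, covalently linked network, nidogens bridge the laminin gamma chain to collagen IV, and perlecan and agrin add heparan sulfate that holds growth factors. In the brain these proteins are best known from the sheet around blood vessels, which endothelial cells, pericytes and astrocytes build, and laminin containing the Lama2 chain is known to promote the survival of oligodendrocytes and myelination through integrins and dystroglycan.

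Nid1 was the member with the largest difference between the groups, 2.51-fold higher in mild-hypo-OPCs, and Nid2 rose by 1.28-fold. Col4a1, Col4a2, Lamc1, Lama4, Hspg2 and Agrn did not pass the test in either direction, and Lama2 and Lamb1 were close to the limit of detection. Leaving Nid1 aside, 1 of the 7 other members tested passed in the higher direction and 0 in the lower (edgeR quasi-likelihood test, Benjamini-Hochberg adjusted p under 0.05 over the 8938 genes tested), and at an unadjusted p under 0.05 these counts were 3 and 1. Over all 8938 genes tested the unadjusted counts were 1200 and 2043. After adjustment, 7.00% of all genes tested passed as higher, 17.0% as lower and 24.0% in either direction. With Nid1 counted, 2 of 8 passed as higher and 0 as lower, by edgeR, limma-voom and DESeq2. The median log2 fold change was 0.11 over the 7 members, 0.17 over the 8 and -0.00 over all genes, with 5 of the 7 and 49.6% of all genes above 0. Since RNA of whole cultures was measured, more cells of a type and more RNA per cell cannot be told apart.

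Every mild-hypo-OPC library was sequenced more deeply than every standard OPC library. Mild-hypo-OPC libraries held 4111669 to 9022324 counts (median 4915674.5) and standard libraries 1356079 to 2797513 (median 1952621), so that oxygen and depth cannot be told apart by these libraries. The scaling factors that correct for a few genes taking up much of a library (TMM) also separated the groups, at 1.08 to 1.23 against 0.809 to 0.945. Levels are given as counts scaled to a common library size with these factors (CPM, the usual unit), and they compare 1 gene between libraries, not different genes, because transcript lengths were not used.

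The sequence before the start site is shown for Nid1, the member with the largest difference, for Lamc1, the gamma chain that nidogens bind, and for the short stretch between Col4a1 and Col4a2. The last pair are transcribed away from each other, and 76 bases separate their annotated start sites. Capitals mark a core hypoxia-factor motif (ACGTG or GCGTG, either strand) or a GC box (GGGCGG, either strand). The sequences are from RefSeq on GRCr8, at chr17:93069036-93069285 (plus strand), chr13:68051987-68052236 (minus strand) and chr16:84885521-84885596 (plus strand).
Nid1: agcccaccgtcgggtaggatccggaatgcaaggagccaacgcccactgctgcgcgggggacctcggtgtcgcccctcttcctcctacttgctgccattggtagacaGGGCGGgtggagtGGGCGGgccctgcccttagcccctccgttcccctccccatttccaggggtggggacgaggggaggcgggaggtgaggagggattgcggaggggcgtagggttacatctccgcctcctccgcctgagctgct
Lamc1: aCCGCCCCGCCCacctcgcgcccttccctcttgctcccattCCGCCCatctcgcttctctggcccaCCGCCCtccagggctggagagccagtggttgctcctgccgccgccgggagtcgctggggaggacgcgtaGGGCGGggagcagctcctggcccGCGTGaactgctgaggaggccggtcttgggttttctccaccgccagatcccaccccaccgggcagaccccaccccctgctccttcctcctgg
Col4a1 and Col4a2: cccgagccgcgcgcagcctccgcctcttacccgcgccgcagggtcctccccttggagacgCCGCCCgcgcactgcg

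The GC box occurs 2 times in the Nid1 window and 5 times in that of Lamc1, and the hypoxia-factor core occurs 0 times and 1 time. A RefSeq window of 300 bases around the start was found for 9 of the 10 members. Of these 9, 5 held the hypoxia-factor core (Col4a1, Col4a2, Lamc1, Hspg2 with 3 matches, and Agrn), against 41.6% of 33469 windows of the same length, and 7 held a GC box, against 33.1%. The windows of Col4a1 and Col4a2 overlap and are not independent. A match describes these letters only.

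Nid1 (ENSRNOG00000002461) encodes nidogen-1, the link protein between laminin and collagen IV. The mild-hypo-OPC libraries had 28.4 CPM at the lowest, 31.8 at the median and 34.7 at the highest, and the standard libraries 8.90, 11.6 and 16.9. The groups did not overlap, and the lowest of the mild-hypo-OPC libraries stood well above the highest standard library. The means were 31.5 ± 2.13 and 12.2 ± 3.16 CPM (SD, n = 6 each), a log2 fold change of 1.33 (SE 0.137). These levels rest on 147 to 309 counts per library in mild-hypo-OPCs but on only 12 to 39 in standard OPCs, where the coefficient of variation was 25.9% against 6.77%. With each library left out in turn the log2 fold change stayed between 1.24 and 1.45. It was 1.76 when scaled by library size alone and 1.10 with the log2 total count as a covariate. Over all genes tested, 2.94% were without overlap between the groups in the higher direction and 5.40% in the lower, and Nid1 was the only member so separated.

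Nid2 (ENSRNOG00000000341), nidogen-2, is the second of the pair and binds many of the same partners. It lay between 33.6 and 45.3 CPM (median 39.3) in mild-hypo-OPCs and between 25.6 and 35.9 CPM (median 30.6) in standard OPCs. The groups overlapped, although 5 of 6 mild-hypo-OPC libraries exceeded the highest standard one. The rise was smaller than that of Nid1, with a log2 fold change of 0.36 (SE 0.113, edgeR adjusted p = 0.0258) and means of 39.9 ± 4.21 and 30.9 ± 5.03 CPM (SD, n = 6 each). The call depended on single libraries. It was lost without standard replicate 3 (edgeR adjusted p = 0.0694), replicate 4 (0.0563) or replicate 5 (0.0623). With the log2 total count as a covariate the log2 fold change of Nid2 was 0.05. In that fit no gene of the whole table passed as higher, so it cannot tell whether the call of Nid2 in particular depends on depth. Within a library the log2 ratio of Nid1 to Nid2 counts, which no scaling factor touches, spanned -0.49 to -0.10 under mild hypoxia, against -1.53 to -1.08 in room air. The ratio differed by 1.0 between the group means, so the difference of Nid1 exceeded that of Nid2 on this scale too.

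**Figure D1:**
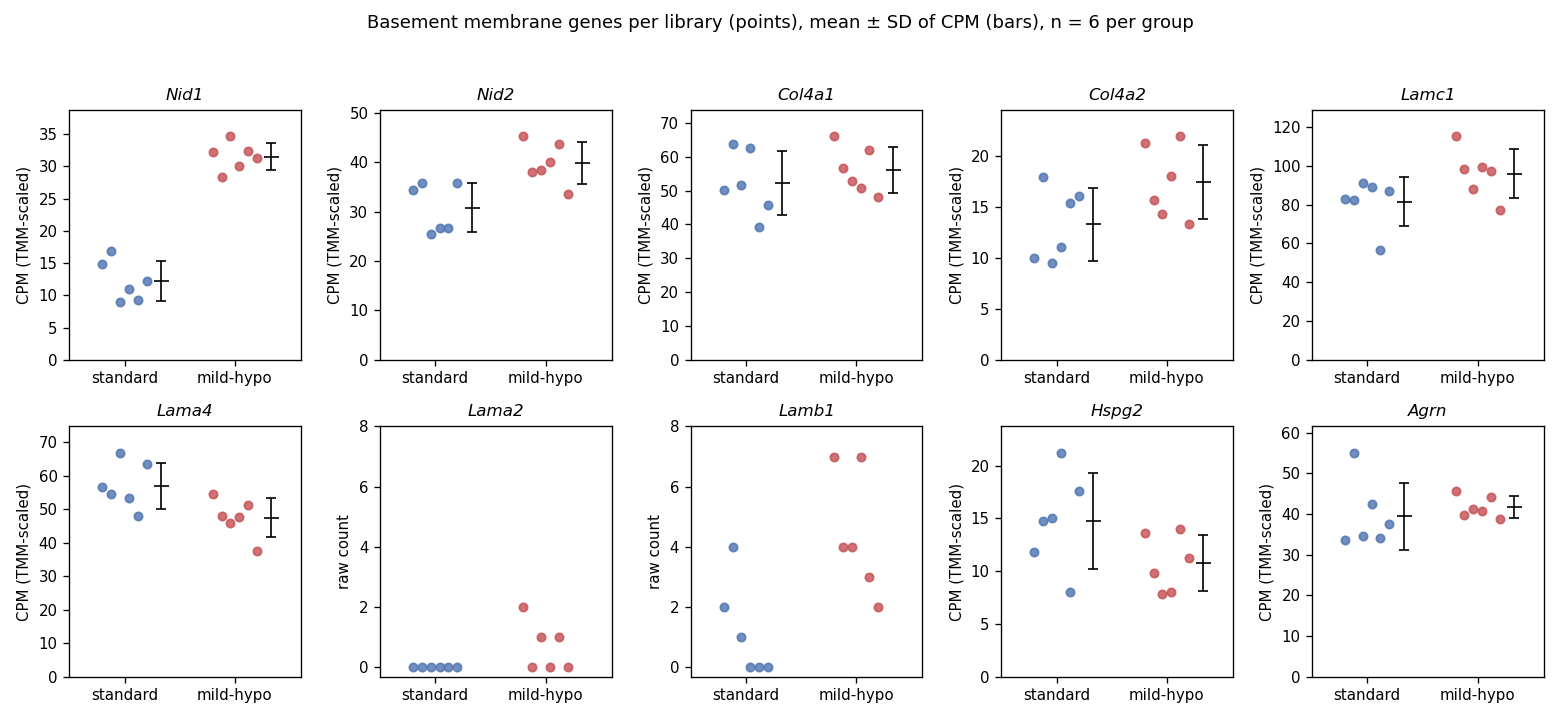
Level of each of the 10 genes in every library, as TMM-scaled CPM (vertical axes from 0) or, for Lama2 and Lamb1, as raw counts, with standard OPCs in blue and mild-hypo-OPCs in red. Points are libraries and bars give the mean ± SD (n = 6 per group). Nid1 is the panel in which all 6 mild-hypo-OPC points lie above all 6 standard points, while the other CPM panels overlap.

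Col4a1 (ENSRNOG00000016281) and Col4a2 (ENSRNOG00000023972) encode the chains of the most widespread collagen IV trimer, which joins 2 copies of the first with 1 of the second. Col4a1 lay at 48.1 to 66.0 CPM (median 54.8) under mild hypoxia, while its standard libraries covered 39.3 to 63.9 CPM (median 50.9). The groups overlapped, with 2 standard libraries below and 1 mild-hypo-OPC library above all of the other group, and the log2 fold change of 0.11 (SE 0.115, edgeR adjusted p = 0.523) was smaller than its error. Col4a2 ranged from 13.3 to 21.9 CPM (median 16.8) against 9.45 to 18.0 CPM (median 13.2). Its log2 fold change of 0.42 (SE 0.188, edgeR adjusted p = 0.113) was larger than that of Nid2 but less precise, and standard libraries held 12 to 34 counts. Leaving out mild-hypo-OPC replicate 6, the lowest of its group for 6 of the 8 members, brought Col4a2 past the threshold (0.51, edgeR adjusted p = 0.0468). The log2 ratio of Col4a1 to Col4a2 counts was 1.70 ± 0.185 in mild-hypo-OPCs and 1.97 ± 0.490 in standard OPCs (SD, n = 6 each). Their difference of -0.27 gave p = 0.223 by exact permutation of the libraries, two-sided (0.297 adjusted over 4 ratios, where the smallest p possible is 0.00216).

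Lamc1 (ENSRNOG00000002680), the gamma chain of most laminins and the chain to which nidogens attach, ranged from 77.1 to 115 CPM (median 98.1) in mild-hypo-OPCs. In standard OPCs it ranged from 56.65 to 91.2 CPM (median 85.0). The 4 highest mild-hypo-OPC libraries were above all standard ones, while the other two lay among them. The log2 fold change was 0.24 (SE 0.111, edgeR adjusted p = 0.129). It fell to 0.15 (adjusted p = 0.293) without standard replicate 5, which had the low value of 56.65 CPM, and reached 0.32 (adjusted p = 0.0339) without mild-hypo-OPC replicate 6. Upper-quartile scaling also carried it past the threshold (0.31, edgeR adjusted p = 0.0481).

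Lama4 (ENSRNOG00000000599), an alpha chain typical of vascular laminins, pointed the other way. Mild-hypo-OPC libraries covered 37.4 to 54.7 CPM (median 47.7), and standard libraries 48.0 to 66.7 CPM (median 55.5). The groups overlapped and the test was not passed at a log2 fold change of -0.26 (SE 0.103, edgeR adjusted p = 0.0684). The call was gained without standard replicate 5 (-0.31, edgeR adjusted p = 0.0443), and the direction turned to 0.17 when libraries were scaled by size alone. Lamc1 and Lama4 thus gave log2 fold changes of opposite sign, and Lama4 was the only tested alpha chain.

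Lama2 and Lamb1 were near 0 in these cultures. Lama2 (ENSRNOG00000011134), the alpha chain of merosin, was seen at 0 to 2 counts in a mild-hypo-OPC library, 4 in all, and 0 counts in all 6 standard libraries. A count of 0 allows up to 3 counts, which in standard libraries is 1.07 to 2.21 CPM and in the 6 pooled is 0.252 CPM, a limit that covers counting error only. Lamb1 (ENSRNOG00000005678), the beta chain of the common laminins, held 2 to 7 counts in each mild-hypo-OPC library (27 in all) and 0 to 4 per standard library (7 in all). Neither gene reached the filter of CPM above 10 in at least 1 library, and a change was not detectable at this depth. In a fit without that filter Lamb1 had a log2 fold change of 0.11 (edgeR adjusted p = 0.935). The log2 ratios of Lamb1 to Lamc1 and of Lama4 to Lama2 had 0 counts in 3 and 9 libraries, so they depend on the added 0.5 count and the depth and are not read here (exact permutation test, adjusted p = 0.827 and 0.139 over 4 ratios).

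Another beta chain, Lamb2, was also detected. It had 17 to 55 counts in mild-hypo-OPC libraries and 0 to 8 in standard libraries, or 4.29 ± 0.898 and 2.11 ± 1.17 CPM (SD, n = 6 each). The groups only just separated, with 3.13 CPM in the lowest mild-hypo-OPC and 3.06 CPM in the highest standard library. Among the genes tested, which leave out Lamb2, 2.94% were without overlap in the higher direction. It lay below the filter in every library, and fits that admitted it gave log2 fold changes of 1.01 (filterByExpr, edgeR adjusted p = 0.0387) and 1.05 (no filter, 0.0417). Lamb2 was singled out after its values were seen. Of the 11 remaining laminin and collagen IV chains, 0 passed the filter. Lama5, an alpha chain of vascular and epithelial laminins, had 11 to 41 counts in mild-hypo-OPC and 5 to 12 in standard libraries, and the others apart from Lamb2 had at most 5 counts in any library.

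The heparan sulfate proteoglycans did not pass the test. Hspg2 (ENSRNOG00000021437), perlecan, had 7.87 to 13.9 CPM (median 10.5) under mild hypoxia and 8.0 to 21.2 CPM (median 14.9) in room air. The log2 fold change was -0.39 (SE 0.208, edgeR adjusted p = 0.186), on 12 to 31 counts per standard library, and with scaling by size alone it was 0.04. Agrn (ENSRNOG00000020205), agrin, known for clustering acetylcholine receptors at the neuromuscular junction, ranged from 38.7 to 45.7 CPM (median 40.9) against 33.6 to 54.9 CPM (median 35.9). The single highest and the 4 lowest Agrn values were all standard libraries, and the log2 fold change was 0.09 (SE 0.113, edgeR adjusted p = 0.623). The log2 ratio of Agrn to Hspg2 counts was 1.98 ± 0.311 in mild-hypo-OPCs and 1.44 ± 0.438 in standard OPCs (SD, n = 6 each), so the means differed by 0.54. This had an unadjusted p of 0.0390 in the two-sided exact permutation test and did not pass after adjustment over 4 ratios (adjusted p = 0.139).

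**Figure D2:**
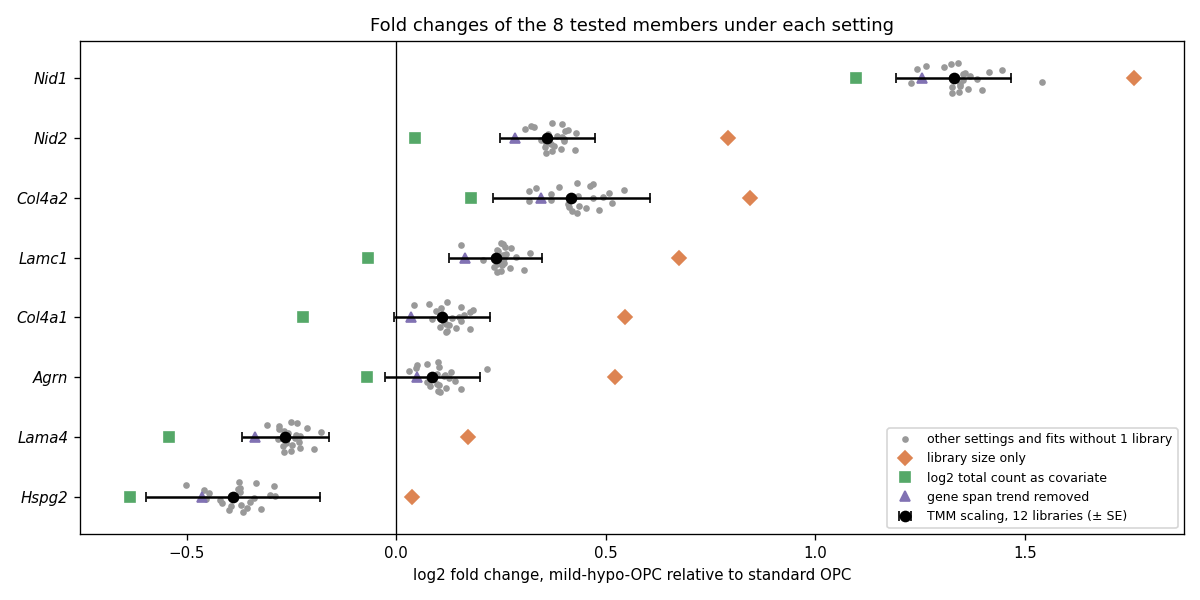
Log2 fold change (horizontal axis, mild-hypo-OPC relative to standard OPC) of the 8 tested members, 1 row for each gene. Black circles with bars give the fit to 12 libraries with TMM scaling (± SE), grey dots the other settings and the fits without 1 library, and coloured symbols 3 named settings. Nid1 stays above 1 throughout, from 1.10 to 1.76, whereas scaling by library size alone moves every member up and the total-count covariate moves every member down.

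The settings that moved all members the most were scaling by library size alone and the total count as a covariate. Every tested member also moved up with upper-quartile factors (members' median 0.24). Every one moved down with the trend on gene span removed (median 0.11), but these shifts were smaller. Scaling by library size alone raised the members' median log2 fold change to 0.61, while the median of all genes rose from -0.00 to 0.43, so that most of the shift was common to the table. With the log2 total count as a covariate, Lamc1 (-0.07), Col4a1 (-0.22) and Agrn (-0.07) turned below 0, Nid2 was at 0.05 and Nid1 at 1.10. In that fit no gene of the whole table passed as higher, with 217 at an unadjusted p under 0.05. Gene length moved with the contrast as well. Ordered by genomic span into 4 bins of near-equal size, the shortest genes had a median log2 fold change of -0.22 and 35.1% were called lower, while the longest had 0.06 and 5.76%. Of the tested members, 6 were in the bin of the longest genes, from 61210 bases up, and 2 in the next. With this trend removed, Nid1 was at 1.25, Nid2 at 0.28 (edgeR adjusted p = 0.0501) and Lama4 was called lower (-0.34, edgeR adjusted p = 0.00726).

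The cultures were checked against marker lists, because endothelial and mural cells are the usual source of these proteins. Summed levels of 8 OPC markers were 3909 to 4495 CPM in mild-hypo-OPCs and 3234 to 3975 CPM in standard OPCs. Of these 8, 2 were called higher and 0 lower, against 7.00% and 17.0% of all genes. Gpr17, 1 of the 2, stood at 1173 to 1468 against 812 to 1062 CPM. All 9 endothelial markers found had at most 10 counts in any library, Cdh5, Tek and Emcn were at 0 in all libraries, and the sum was 0.321 to 1.33 CPM against 0 to 2.0 CPM. Mural markers summed to 6.74 to 11.3 against 4.0 to 12 CPM, with Rgs5 and Abcc9 of the 9 at 0. Fibroblast markers, with Lum of the 7 at 0, summed to 3.15 to 6.75 against 0 to 3.17 CPM. Endothelial markers were thus at or near 0 in both groups, and the fibroblast sum was higher in most mild-hypo-OPC libraries. In a fit without the filter, mural Pdgfrb had a log2 fold change of 4.24 (edgeR adjusted p = 0.0312). Of the fibroblast list Postn (1.36, 0.0156) was called higher and Dcn (-3.74, 0.0268) lower there. No other mural or fibroblast marker passed, and 734 genes of the table were called higher and 1517 lower. These lists lie near the floor, with 6 of the 9 mural and 6 of the 7 fibroblast markers at no more than 10 counts in any library. Astrocyte markers, all 7 detected, summed to 663 to 781 against 628 to 721 CPM. Of the 6 tested 1 rose and 0 fell, against 7.00% and 17.0% of all genes. The one that rose was Aqp4, the water channel of astrocyte endfeet, without overlap between the groups (log2 fold change 0.79, edgeR adjusted p = 0.000287). In the higher direction 2.94% of all genes tested were so separated. Microglial markers, all 8 detected, summed to 42.8 to 61.5 against 21.2 to 42.3 CPM, without overlap. Of the 3 microglial markers tested, Csf1r (0.61) and C1qb (0.76) rose on the log2 scale and C1qa (0.59, edgeR adjusted p = 0.103) did not pass. Over all genes 7.00% were called higher. Of the 5 below the filter, Aif1 (-0.70) and Ptprc (-0.22) were below 0 in a fit without the filter. Of the 4 Schwann cell markers the sum was 26.1 to 36.8 against 31.2 to 48.7 CPM. The 1 tested, Pmp2, was called lower (log2 fold change -0.50). The part of the OPC, mural, fibroblast, astrocyte, microglial and Schwann cell signals in the differences of the members was not tested.

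Among the receptors through which cells bind this matrix, 5 of the 11 genes tested (of 19 listed) rose and 0 fell, with 8 and 0 at an unadjusted p under 0.05. The receptors' median log2 fold change was 0.35, against -0.00 over all genes. Itgb3 and Sdc1, among the 8, entered the test through mild-hypo-OPC libraries alone, and these figures include them. The share called over all genes was 7.00% higher and 17.0% lower. At an unadjusted edgeR p under 0.05, 1200 of all 8938 genes tested were higher and 2043 lower. Since the lists were chosen with earlier results of these data known, setting them against that share is a description. Adgrg6, an adhesion G protein-coupled receptor that binds collagen IV and laminin, had a lowest, median and highest level of 23.4, 25.7 and 27.2 CPM under mild hypoxia, against 8.40, 13.8 and 15.7 CPM in room air. Its log2 fold change was 0.95 (SE 0.132, edgeR adjusted p = 0.000146). Ddr1, a collagen receptor tyrosine kinase, ran from 171 to 181 CPM (median 174) against 116 to 157 CPM (median 129), a log2 fold change of 0.40 (SE 0.0806, edgeR adjusted p = 0.00134). Dag1, dystroglycan, which binds laminins, perlecan and agrin, ran from 304 to 336 CPM (median 320) against 222 to 296 CPM (median 244), a log2 fold change of 0.35 (SE 0.0795, edgeR adjusted p = 0.00387). In each of these 3 genes the groups did not overlap, as was so for 2.94% of all genes in the higher direction.

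Of the laminin-binding integrin chains, Itga6 and Itgb1 were tested and rose, while Itga3, Itga7 and Itgb4 lay below the filter. Itga6 lay at 15.6 to 21.8 CPM (median 17.7) in mild-hypo-OPCs, above all standard libraries at 7.36 to 14.8 CPM (median 13.1), and its log2 fold change was 0.53 (SE 0.150, edgeR adjusted p = 0.0152). Its partner Itgb1 had a median of 226 CPM against 189 CPM and a log2 fold change of 0.25 (SE 0.0767, edgeR adjusted p = 0.0243). The lowest mild-hypo-OPC and the highest standard value of Itgb1 both rounded to 211 CPM, so the groups only just separated. Over all genes tested 7.00% were called higher, and 2.94% were without overlap in the higher direction. Adgrg6, Ddr1, Dag1 and Itga6 passed in all 12 fits that left out 1 library, and Itgb1 in 9. The call of Itgb1 was lost without standard replicate 4 (edgeR adjusted p = 0.05005), 5 (0.05123) or 6 (0.0590), and with the span trend removed (0.0573). In replicates 1 to 3 alone Adgrg6 passed (edgeR adjusted p = 0.0131), but Ddr1 (0.122), Dag1 (0.220), Itga6 (0.304) and Itgb1 (0.409) did not. With the total count as a covariate no gene of the whole table passed as higher, these 5 receptors included. In that fit Adgrg6 was at 0.67, Ddr1 at 0.30, Dag1 at 0.06, Itga6 at 0.00 and Itgb1 at -0.03. Itgb3 (0.73, edgeR adjusted p = 0.0737) and Sdc1 (0.64, 0.0819) entered the test through mild-hypo-OPC libraries alone and did not pass, and Sdc2, a syndecan, was the only receptor tested below 0 (-0.27, 0.292). These 2 genes and Sdc2 were picked out after their values were seen.

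**Figure D3:**
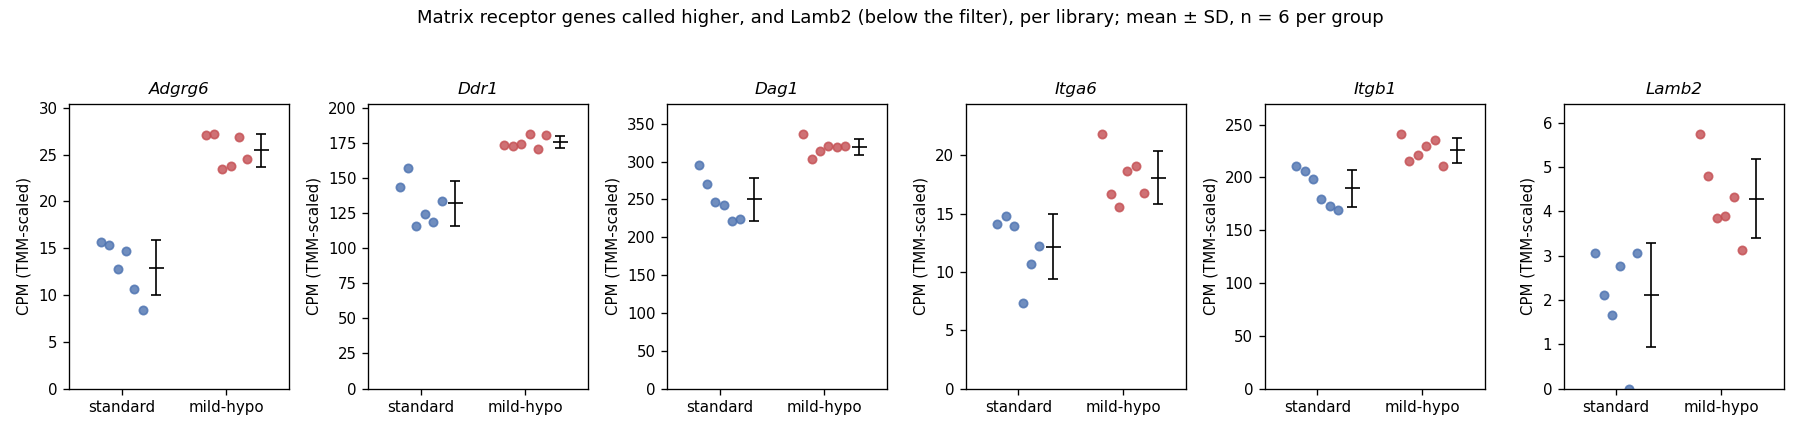
TMM-scaled CPM per library (vertical axes from 0) of the 5 receptor genes called higher and of Lamb2, in standard OPCs (blue) and mild-hypo-OPCs (red). Points are libraries and bars the mean ± SD (n = 6 per group). Adgrg6 has the widest gap relative to its level, with its lowest mild-hypo-OPC library at 23.4 CPM and its highest standard library at 15.7, while in Itgb1 the groups touch.

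Inside the cell dystroglycan needs a sugar chain before it can hold laminin, and a protein complex that anchors it to the cytoskeleton. Of the 12 genes that build the sugar chain, 11 were tested, 1 rose and 0 fell, against 7.00% and 17.0% of all genes (median log2 fold change 0.10). The one that rose was Pomgnt2, an enzyme that adds an early sugar, at 17.0 to 21.2 CPM (median 18.8) in mild-hypo-OPCs and 10.6 to 20.7 CPM (median 11.6) in standard OPCs, with overlap between the groups. Its log2 fold change was 0.48 (edgeR adjusted p = 0.0278), and the call was lost without standard replicate 2, 3, 4 or 6, at adjusted p values up to 0.0686. Of the 13 genes of the dystrophin complex, 5 were tested, and 0 rose and 0 fell (median -0.04), with 0 and 0 also at an unadjusted p under 0.05 and with limma-voom and DESeq2. The neighbouring matrix genes had few that could be tested, 4 of 18. At an unadjusted edgeR p under 0.05, 2 of these rose and 0 fell, against 1200 and 2043 of all 8938 genes tested. After adjustment 0 of the 4 rose and 0 fell, by edgeR, limma-voom or DESeq2. Their log2 fold changes were 0.30 for Sparc, a collagen IV-binding glycoprotein (edgeR adjusted p = 0.0958), 0.60 for Fn1, fibronectin (0.0991), 0.18 for Smoc1, a calcium-binding matrix protein (0.203), and 0.28 for Pxdn, the peroxidase that cross-links collagen IV (0.333). Pxdn entered the test through mild-hypo-OPC libraries alone.

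Enzymes that make and trim heparan sulfate, the sugar carried by perlecan and agrin, moved both ways. Of 20 listed genes 15 were tested, 2 rose and 1 fell, against 7.00% and 17.0% of all genes, with a median log2 fold change of 0.18. Sulf2, a sulfatase that removes sulfate groups outside the cell, stood at 462 to 566 CPM (median 487) against 350 to 463 CPM (median 403), with a log2 fold change of 0.31 (edgeR adjusted p = 0.0119), although it was at -0.07 with the total-count covariate. Ndst1, which starts sulfation, rose by 0.35 on that scale (edgeR adjusted p = 0.0477) and kept its call in 6 of 12 fits without 1 library. The call was lost in the fits without replicate 2, 4 or 5 of mild-hypo-OPCs or replicate 4, 5 or 6 of standard OPCs, at adjusted p values up to 0.103. B3gat3, which completes the linker that joins the sugar to the protein, fell by 0.36 on the log2 scale (edgeR adjusted p = 0.0135), with 127 to 185 CPM (median 150) against 158 to 223 CPM (median 196). Its direction turned to 0.08 with scaling by library size alone and 0.17 with the covariate, and its call was lost without mild-hypo-OPC replicate 1 (adjusted p = 0.0555) or 5 (0.0518).

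Among the genes that fold and export collagen, 2 of the 8 tested rose and 0 fell, against 7.00% and 17.0% of all genes (median log2 fold change 0.24). Colgalt1, which adds galactose to collagen, ran from 47.0 to 55.3 CPM (median 50.02) against 33.4 to 45.1 CPM (median 38.0), without overlap, and passed in all 12 fits without 1 library (0.38, edgeR adjusted p = 0.00590). In the higher direction 2.94% of all genes tested were so separated. Serpinh1, the collagen chaperone HSP47, ran from 13.1 to 24.9 CPM (median 18.1) against 8.28 to 19.5 CPM (median 10.6), with overlap (0.61, edgeR adjusted p = 0.0358). The call of Serpinh1 was lost with limma-voom (adjusted p = 0.0539) and in the fits without replicate 1 of mild-hypo-OPCs or replicate 1, 3, 4 or 5 of standard OPCs, at edgeR adjusted p values up to 0.0960.

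Among matrix proteases and their inhibitors, 3 of the 9 tested (of 14 listed) rose and 1 fell, against 7.00% and 17.0% of all genes, with a median log2 fold change of 0.21. Bmp1, a protease that trims procollagens and laminin chains, had 44.8 to 48.5 CPM (median 46.0) under mild hypoxia and 25.3 to 46.6 CPM (median 35.4) in room air (log2 fold change 0.38, edgeR adjusted p = 0.0137), and it passed in all 12 fits without 1 library. Adamts4, a protease of proteoglycans (0.27, edgeR adjusted p = 0.0487), and Mmp15, a membrane-bound metalloprotease (0.21, 0.0490), rose but passed in only 6 and 5 of those 12 fits. Adamts4 lost its call in the fits without replicate 1, 4 or 5 of mild-hypo-OPCs or replicate 3, 4 or 5 of standard OPCs, and Mmp15 in those without replicate 4, 5 or 6 of mild-hypo-OPCs or replicate 1, 3, 5 or 6 of standard OPCs, both at adjusted p values up to 0.113. Timp4, a metalloprotease inhibitor, fell by 0.44 on the log2 scale (edgeR adjusted p = 0.0252), with 16.4 to 20.8 CPM against 20.1 to 34.0 CPM, and lost its call in the same 6 fits as Adamts4, at adjusted p values up to 0.0826. The log2 fold change of Timp4 was -0.0039 with library size alone and -0.04 with the total-count covariate. With the span trend removed it was -0.27 and not called (edgeR adjusted p = 0.1215).

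**Figure D4:**
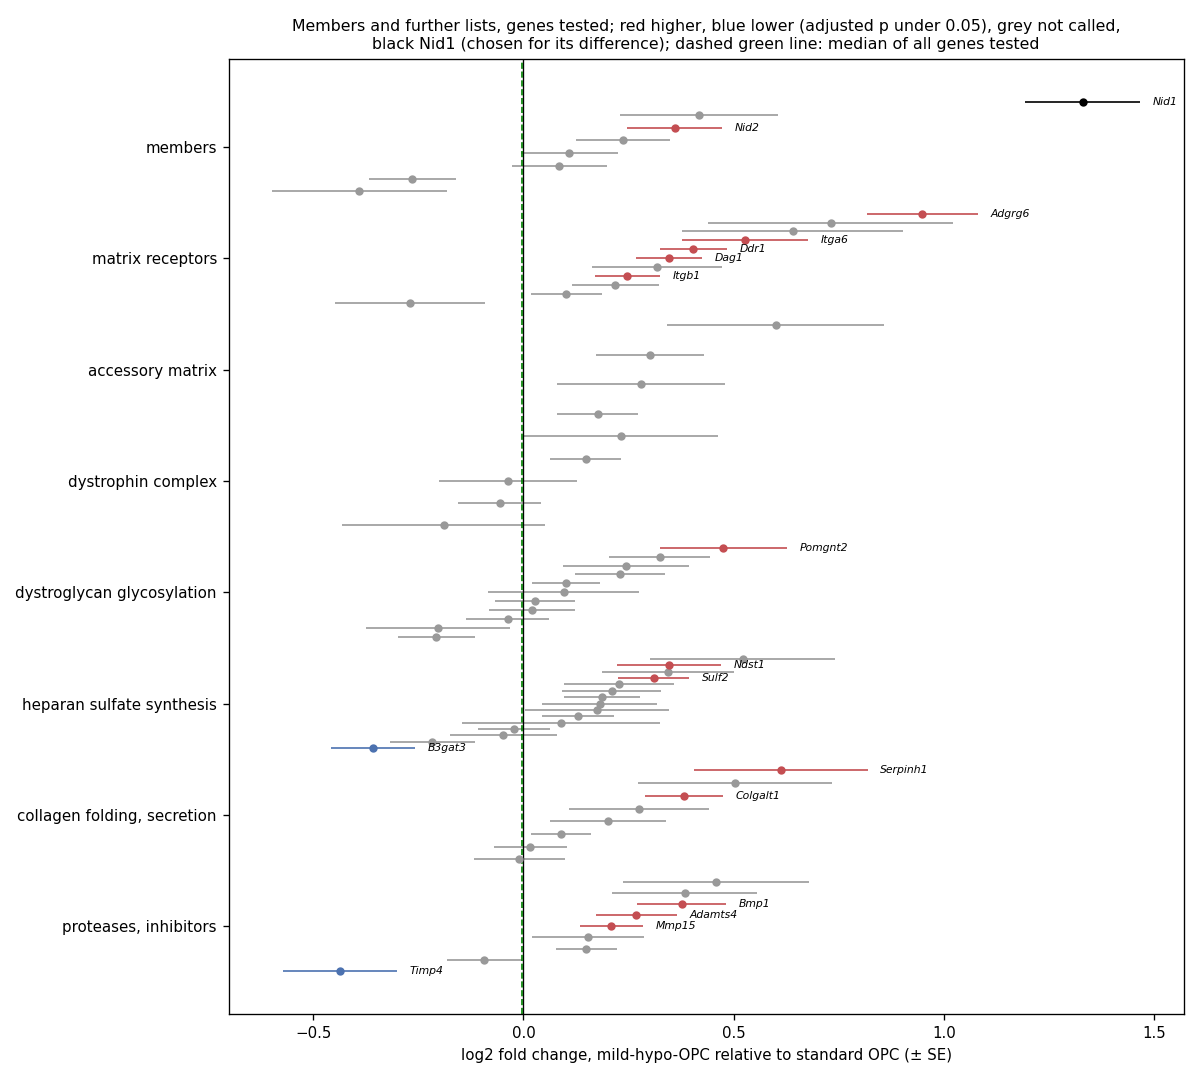
Log2 fold change ± SE (horizontal axis, mild-hypo-OPC relative to standard OPC) of every tested gene of the members and of 7 further gene lists, 1 band for each list. Red points were called higher and blue points lower at an adjusted p under 0.05, grey points were not called, Nid1 is black because its difference was known beforehand, and the dashed line is the median of all genes (-0.00). In the receptor band 10 of 11 points lie to the right of 0, and no receptor was called lower. Of the 10, Itgb3 and Sdc1 entered the test through mild-hypo-OPC libraries alone.

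Among the genes tested, those whose profile over the 12 libraries was most like that of Nid1 were Dpysl5, Igfbp5, Slc12a7, Txnip and Adgrg6. Dpysl5 and Txnip entered the test through mild-hypo-OPC libraries alone, as the filter used CPM before TMM scaling. Likeness was the mean absolute difference of log2 CPM, each gene centred on its own mean, and it was 0.153 for Dpysl5, 0.206 for Igfbp5, 0.209 for Slc12a7, 0.264 for Txnip and 0.273 for Adgrg6. All 5 share the group difference that the measure rewards, with log2 fold changes of 1.09, 1.04, 1.0, 0.99 and 0.95 in that order, so these values are a description. Dpysl5 is a collapsin response mediator, Igfbp5 binds insulin-like growth factors, Slc12a7 is a potassium-chloride cotransporter, and Txnip binds thioredoxin. The nearest other member was Nid2, at 0.496 and rank 491 of the genes tested, followed by Col4a2 at 0.518 and Lamc1 at 0.564. Hspg2, at 0.890, was the member farthest from Nid1.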

How the data were processed

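Strand-specific libraries were sequenced as paired ends, trimmed with Trimmomatic 0.36, checked with FastQC 0.11.9, aligned with STAR 2.7.9a to mRatBN7.2 and quantified with RSEM 1.3.3, per the published methods and the submitters' processing notes. The authors deposited 1 table of whole-number counts per gene for the 12 libraries. How RSEM estimates became whole numbers is not given in the sources used here. The members and lists were chosen with earlier results of these data known.

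Counts were tested with edgeR 4.0.16 (glmQLFit, glmQLFTest, TMM factors, condition only) in R 4.3.3, on genes with CPM above 10 in at least 1 library, with two-sided p-values adjusted by Benjamini-Hochberg over all 8938 genes. The SE was the size of the log2 fold change divided by the square root of F. Alternatives were limma-voom (limma 3.58.1), DESeq2 1.42.0, other scalings and filters, a replicate block, subsets of libraries, and offsets removing the trend on RefSeq gene span (known for 95.55% of genes tested). Results restricted to symbols of RefSeq protein-coding genes were added after seeing the data. Ratios of counts, with 0.5 added, were compared by exact permutation (SciPy 1.17.1). Floors stand for 3 counts. The code was tested on simulated data. Outside the members, the genes named were the called genes of each list, at most 6 per list, and the 5 most like Nid1. Others are named as exceptions. If libraries share a culture, p-values measure technical spread in part or in full.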

Additional observations from a re-analysis of the deposited data

Results flagged for a closer look

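In standard OPCs, Lamc1 of replicate 5 stood apart from the other libraries at 56.65 CPM. Its gap to the next library was 0.745 of the range of the group, above Dixon's 95% critical value of 0.625 for 6 libraries. Of the 58 groups examined 1 exceeded its critical value, and chance alone gives about 1 in 20. Without this library the log2 fold change of Lamc1 was 0.15 (edgeR adjusted p = 0.293), against 0.24 (0.129) with it.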

How the results depend on the processing

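The number of members called higher was 2 and of those called lower 0 with limma-voom, DESeq2 and every filter on low counts. Upper-quartile factors gave 3 higher (Lamc1 added). Scaling by library size alone gave 6 higher, replicates 1 to 3 gave 1, replicates 4 to 6 gave 1, and the total-count covariate gave 0 (1 at an unadjusted p under 0.05). Removing the span trend gave 1 higher and 1 lower. Leaving out 1 library gave 1 to 4 higher and 0 to 1 lower. Over all genes, 626 were called higher and 1520 lower. Upper-quartile factors gave 1136 higher, library size alone 5515 higher and 405 lower, replicates 1 to 3 gave 53 and 343, and the covariate 0 and 43. Without 1 library there were 436 to 823 higher and 1165 to 1664 lower. The members' median log2 fold change was 0.61 with library size alone and -0.0687 with the covariate. Of the called genes, those whose sign turned were Sulf2 (-0.0657) and Itgb1 (-0.0334) with the covariate, and B3gat3 with library size alone (0.0841) and the covariate (0.166). Of the members not called, Lama4 and Hspg2 turned above 0 with library size alone, and Col4a1, Lamc1 and Agrn below 0 with the covariate. In replicates 1 to 3, Adgrg6 alone of the named list genes kept its call. The cause was not tested.

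With the replicate number as a block, 2 members were called higher and 0 lower, and 572 and 1471 genes of the table. The block ended the call of Mmp15 (edgeR adjusted p = 0.0762) and brought 2 of 4 neighbouring matrix genes past the threshold. Same-numbered libraries did not deviate together (r from -0.276 to 0.296, with 1 of 6 numbers matching itself best), so the number is not taken as a pairing. Standard libraries held 12 to 39 counts of Nid1 and 12 to 31 of Hspg2, which limits both.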
